A study of Mus musculus with 9 samples.

Results

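PD-1 is an inhibitory receptor that T cells raise after activation, and it is encoded by Pdcd1. Its ligands PD-L1, encoded by Cd274, and PD-L2, encoded by Pdcd1lg2, sit on tumor, myeloid and other cells. When a ligand binds PD-1, phosphatases are drawn to the receptor and signals from the T cell receptor and CD28 are damped. Interferon gamma is the best known inducer of PD-L1, through JAK kinases and IRF1, while PD-L2 is made mainly by dendritic cells and macrophages and is also induced by type 2 cytokines. In melanoma, antibodies that block PD-1 are an established therapy. The 3 genes were taken by symbol from 22195 genes, and their RNA was followed over every tumor library at hand.

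The tumors were YUMMER1.7 allografts, grown under the skin of immunocompetent C57BL/6J mice. YUMMER1.7 is a mouse melanoma line derived by ultraviolet irradiation of a Braf-mutant line, so all groups carry the changes of that line in the tumor cells. There were 3 libraries from tumors treated with an anti-B7-H3 antibody, 3 from tumors treated with anti-PD1 and 3 from tumors given an IgG isotype control, and treatment began once the tumors had reached a set size. B7-H3, encoded by Cd276, is another checkpoint protein of the same family as the PD-1 ligands. The age and sex of the mice, the antibody clones and the time of dissection are not given in the sources used here, and the combination of both antibodies is not analysed here. The labels do not tie each library to a separate animal. Every p-value therefore reflects the spread among the libraries at hand, part of which may be technical.

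Ribosome-depleted total RNA of whole tumors was sequenced, and the deposited values are estimated reads per transcript. The libraries held between 8627930 and 27288766 estimated reads. Reads from 12 genes made of the major satellite repeat, a tandem repeat beside mouse centromeres, took 5.24 to 28.2% of gene reads with anti-B7-H3, 14.6 to 38.2% with anti-PD1 and 87.0 to 92.0% with IgG. That left 7239044 to 14408350 other reads per library with anti-B7-H3, 5326276 to 9583684 with anti-PD1 and 1252540 to 3546706 with IgG. Olfactory and vomeronasal receptor genes, which are silent outside chemosensory tissue and so give a measure of background, took 40.6 to 200 CPM (counts scaled to a common library size, here the other reads) with anti-B7-H3, 79.3 to 283 with anti-PD1 and 768 to 4863 with IgG. Whatever set the IgG libraries apart in this way cannot be told apart from the treatment. Of the 8 defining melanocyte genes only Mitf, a melanocyte regulator also used by other cells, passed the filter on low reads, at 4.24 to 9.65 CPM over the 9 libraries, after the scaling described below. Sox10, another regulator of the lineage, was at 3.50 and 4.14 CPM in the IgG libraries 1 and 3 and at or below 0.558 CPM elsewhere, and the remaining genes were at or below 1.84 CPM in each library. The 8 together summed to 4.58 to 5.57 CPM with anti-B7-H3, 4.63 to 9.32 with anti-PD1 and 7.15 to 21.1 with IgG. Mlana and Tyr had no read in any anti-B7-H3 library, and Tyrp1 had none in any anti-PD1 library.

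Pdcd1 (ENSMUSG00000026285) lies on the minus strand of chromosome 1, at 94038305 to 94052553 of GRCm38, and the deposited tables list its 867 coding bases, or 288 codons, in 5 coding exons. The ligand genes are neighbours on the plus strand of chromosome 19. Cd274 (ENSMUSG00000016496) spans 29367455 to 29388095 and has 873 coding bases, and Pdcd1lg2 (ENSMUSG00000016498) begins 22823 bases further on, spans 29410919 to 29471161 and has 744. Exons of an antisense gene, AC119228.1, cover 511 of the coding bases of Cd274, and it is not stated whether the counting used strand, so reads of the pair could not be separated. No exon of another gene covered a coding base of Pdcd1 or Pdcd1lg2.

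The 250 bases before each RefSeq start (GRCm38.p6) are printed because the genes have different known regulators, and they are given 5′ to 3′ on the strand of the gene. In Pdcd1 (chr1:94052554-94052803, minus strand), capitals mark the letters GGAAA, the core that NFAT proteins bind, which occurs on the opposite strand at 28 and 23 bases before the start.
Pdcd1: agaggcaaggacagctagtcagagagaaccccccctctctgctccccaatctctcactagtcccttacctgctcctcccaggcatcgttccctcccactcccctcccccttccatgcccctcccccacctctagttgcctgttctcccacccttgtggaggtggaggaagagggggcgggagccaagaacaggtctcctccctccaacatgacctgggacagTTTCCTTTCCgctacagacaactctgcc
In Cd274 (chr19:29367188-29367437, plus strand) and Pdcd1lg2 (chr19:29410669-29410918, plus strand), capitals mark the letters GAAAC, the core of sites bound by interferon regulatory factors.
Cd274: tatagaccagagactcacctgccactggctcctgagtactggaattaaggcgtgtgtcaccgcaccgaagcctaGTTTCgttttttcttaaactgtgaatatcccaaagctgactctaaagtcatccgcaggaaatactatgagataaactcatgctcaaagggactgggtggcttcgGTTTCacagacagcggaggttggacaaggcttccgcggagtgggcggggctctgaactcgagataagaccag
Pdcd1lg2: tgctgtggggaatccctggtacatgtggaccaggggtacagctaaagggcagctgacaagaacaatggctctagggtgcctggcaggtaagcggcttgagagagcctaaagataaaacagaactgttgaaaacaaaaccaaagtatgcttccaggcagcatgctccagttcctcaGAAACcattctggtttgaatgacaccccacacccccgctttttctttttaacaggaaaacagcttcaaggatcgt
GAAAC occurred 2 times in Cd274, both on the opposite strand, 1 time in Pdcd1lg2 and 1 time in Pdcd1, where it overlaps the first marked GGAAA. The letters of that NFAT core also occurred 1 time in Cd274, 120 bases before the start, and 1 time in Pdcd1lg2, 22 bases before it, both on the strand of the gene and not marked, so it does not set Pdcd1 apart. Such short words are common: of 32851 promoter windows of the same length, searched on both strands, 39.7% held GAAAC and 55.6% held GGAAA. The longer pattern of interferon regulatory factors, 2 copies of GAAA with any 2 bases between them, was in 2.98% of windows. The STAT pattern TTCNNNGAA was in 7.02% and the AP-1 pattern TGANTCA in 6.75%, and none of these was among the letters of the 3 windows. GAAAC was searched after the longer patterns had given no match. The G and C bases made up 60.4% of the window of Pdcd1, 50.4% of that of Cd274 and 48.4% of that of Pdcd1lg2.

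All 3 genes were low in these tumors, and their reads were few with IgG. Pdcd1 had 20, 104 and 132 reads in the anti-B7-H3 libraries 1, 2 and 3, then 11, 23 and 29 with anti-PD1 and 11, 4 and 2 with IgG. Cd274 had 77, 582 and 899 reads in anti-B7-H3 tumors, 61, 54 and 144 in anti-PD1 tumors and 63, 38 and 5 in IgG tumors. Pdcd1lg2 had 9, 33 and 70 reads in anti-B7-H3 tumors, 5, 9 and 12 in anti-PD1 tumors and 7, 6 and 2 in IgG tumors. Most reads of each gene were thus in the anti-B7-H3 libraries 2 and 3, and the third IgG library held the fewest. All 3 genes passed the filter, but Pdcd1 and Pdcd1lg2 passed through the antibody groups alone. In the filter's measure, CPM of the library total with a limit of 0.735, no IgG library was over the limit for either gene, against 2 of 3 for Cd274.

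Levels are given below as TMM-scaled CPM, counts per common library size after a scaling that sets the typical gene equal between libraries. With anti-B7-H3, Pdcd1 stood at 1.02, 2.89 and 3.39 CPM and averaged 2.43 ± 1.25 (SD, n = 3). With anti-PD1 it stood at 0.801, 0.991 and 1.14 CPM, averaging 0.977 ± 0.169, and with IgG at 2.14, 0.447 and 0.919 CPM, averaging 1.17 ± 0.873 (SD, n = 3 each). The anti-B7-H3 libraries 2 and 3 were the highest of the 9, but the first lay among the anti-PD1 libraries, and the IgG libraries ran from below the anti-PD1 values to above them.

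Cd274, the ligand with the most reads, showed the same shape on a larger scale. It stood at 3.94, 16.2 and 23.1 CPM with anti-B7-H3, averaging 14.4 ± 9.71 (SD, n = 3). It stood at 4.44, 2.33 and 5.65 CPM with anti-PD1, averaging 4.14 ± 1.68, and at 12.2, 4.24 and 2.30 CPM with IgG, averaging 6.26 ± 5.27 (SD, n = 3 each). Above all others were again the anti-B7-H3 libraries 2 and 3, the first IgG library came next, and the first anti-B7-H3 library was below 2 of the anti-PD1 libraries.

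Pdcd1lg2 differed in its order. It stood at 0.460, 0.917 and 1.80 CPM with anti-B7-H3, averaging 1.06 ± 0.681, at 0.364, 0.388 and 0.471 CPM with anti-PD1, averaging 0.408 ± 0.0560, and at 1.36, 0.670 and 0.919 CPM with IgG, averaging 0.983 ± 0.350 (SD, n = 3 each). Every anti-PD1 library lay below every IgG library, the one pair of groups that did not overlap among the 9 pairs of gene and comparison, while the anti-B7-H3 libraries spanned nearly the whole range. The share of all tested genes without overlap was not worked out, here or for the non-overlaps given below. With 3 libraries against 3, even full separation cannot give an exact two-sided permutation p below 0.10. For all 3 genes the group means ran in the order anti-B7-H3, IgG, anti-PD1. Neighbours in that order lay closer than the larger of their SDs for Cd274 throughout, for Pdcd1 between anti-PD1 and IgG and for Pdcd1lg2 between anti-B7-H3 and IgG. For Pdcd1 between anti-B7-H3 and IgG the gap was about as large as the larger SD, and for Pdcd1lg2 between anti-PD1 and IgG it was larger.

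**Figure D1:**
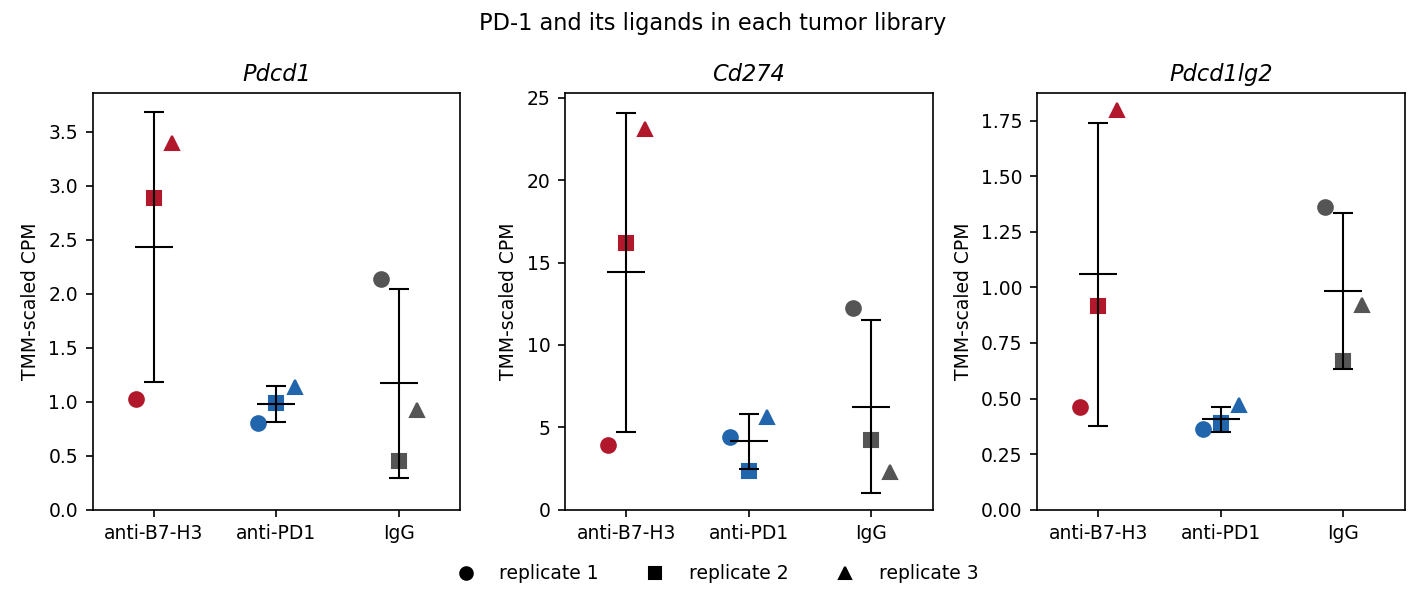
TMM-scaled CPM of Pdcd1, Cd274 and Pdcd1lg2 in each of 9 tumor libraries, with the mean and SD of each group of 3; symbols give the replicate number. The anti-B7-H3 libraries 2 and 3 are the highest for Pdcd1 and Cd274, the first anti-B7-H3 library lies near the anti-PD1 libraries, and all anti-PD1 values of Pdcd1lg2 lie below all IgG values.

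Compared per length of coding sequence, Cd274 was the most abundant of the 3 in each group. On the TMM-scaled RPKM scale, which divides the level by the effective length in kilobases, Cd274 averaged 20.5, Pdcd1 3.50 and Pdcd1lg2 1.85 with anti-B7-H3. With anti-PD1, Cd274 averaged 5.85, Pdcd1 1.40 and Pdcd1lg2 0.706, and with IgG the means were 9.34 for Cd274, 1.76 for Pdcd1 and 1.82 for Pdcd1lg2. The TPM deposited by the authors count the satellite reads in their total and give another picture: Pdcd1 was at 1.86, 7.54 and 8.73 TPM with anti-B7-H3, at 1.09, 1.90 and 2.59 TPM with anti-PD1 and at 0.270, 0.102 and 0.0966 TPM with IgG. In the authors' TPM all IgG values of Pdcd1 lay below all antibody values, which is not so on the TMM scale.

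Setting anti-B7-H3 against IgG asks what an antibody to another checkpoint did to the RNA of the PD-1 axis. None of the 3 genes passed the test, edgeR's quasi-likelihood F test with Benjamini-Hochberg adjustment at 0.05 over all 12980 genes tested, where 0.609% of genes passed, 0.0077% higher and 0.601% lower. The log2 fold change, given with its standard error, was 1.10 ± 0.62 for Pdcd1 (edgeR adjusted p = 0.574), 1.14 ± 0.72 for Cd274 (edgeR adjusted p = 0.637) and 0.15 ± 0.63 for Pdcd1lg2 (edgeR adjusted p = 0.972). At this spread a difference of the size seen for Pdcd1 and Cd274 was not told from no difference. Leaving out 1 library turned the sign of Pdcd1lg2, to -0.46 without the third anti-B7-H3 library and to -0.13 without the second IgG library. With the receptor reads as a covariate all 3 signs turned, to -0.28 ± 1.51 for Pdcd1, -0.89 for Cd274 and -1.21 for Pdcd1lg2. Those reads took 768 to 4863 CPM with IgG and no more than 283 in any antibody library. The covariate thus nearly follows the split between IgG and the antibodies. The standard error of Pdcd1 grew from 0.62 to 1.51, and the turned signs cannot be read as reversals. Scaling by library totals, which moved the median of all genes to 3.37, put all 3 past the threshold, and relative to that median the values were 1.21 for Pdcd1, 1.28 for Cd274 and 0.19 for Pdcd1lg2.

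Setting anti-PD1 against IgG includes the gene of the antibody's own target. As the antibody binds the protein, Pdcd1 RNA is no check of the labels. None of the 3 genes passed, where 0.408% of all genes did, 0.0077% higher and 0.401% lower. The log2 fold change was -0.21 ± 0.65 for Pdcd1 (edgeR adjusted p = 0.898), -0.67 ± 0.74 for Cd274 (edgeR adjusted p = 0.669) and -1.22 ± 0.67 for Pdcd1lg2 (edgeR adjusted p = 0.349). The values of Pdcd1lg2 did not overlap between these groups, but the third IgG library rests on 2 reads. Without the first IgG library the sign turned for Pdcd1, at 0.76, and for Cd274, at 0.21. Scaling by library totals, which moved the median of all genes to 3.15, also turned all 3 signs; relative to that median the values were -0.12 for Pdcd1, -0.59 for Cd274 and -1.21 for Pdcd1lg2. The value of Pdcd1 also turned to 0.040 with totals of reads outside satellite genes, 0.017 with no filter and 0.13 with limma-voom.

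Setting anti-B7-H3 against anti-PD1 compares groups of which neither is IgG, although the spread was estimated over all 9 libraries. The fitted fold change was 2.49 for Pdcd1, 3.50 for Cd274 and 2.59 for Pdcd1lg2. On the log2 scale the fitted values were 1.31 ± 0.55 for Pdcd1, 1.81 ± 0.68 for Cd274 and 1.37 ± 0.58 for Pdcd1lg2. When fitted on the libraries of these groups alone they were 1.30 ± 0.45 for Pdcd1, 1.79 ± 0.62 for Cd274 and 1.37 ± 0.54 for Pdcd1lg2 (edgeR adjusted p = 0.550, 0.550 and 0.564). None of the 3 passed after adjustment over all genes, where each had an edgeR adjusted p of 0.749, and 0% of the 12980 genes did. At an unadjusted p under 0.05, edgeR had 510 genes higher, all 3 of these among them, and 331 lower, while DESeq2 called 11 higher and 13 lower after adjustment, and limma-voom called 0. Few genes had a larger log2 fold change: 1.29% of those tested were above Pdcd1, 0.37% above Cd274 and 1.08% above Pdcd1lg2. The groups overlapped for each gene, since the first anti-B7-H3 library lay within the anti-PD1 values. Under every alternative but library totals the values stayed between 0.98 and 1.67 for Pdcd1, 1.22 and 2.25 for Cd274 and 0.76 and 1.71 for Pdcd1lg2, and with library totals, where the median of all genes moved to 0.20, they were 1.55 for Pdcd1, 2.08 for Cd274 and 1.61 for Pdcd1lg2. A single test over the 3 groups gave edgeR adjusted p-values of 0.391 for Pdcd1, 0.381 for Cd274 and 0.424 for Pdcd1lg2, where 1.22% of genes passed. These comparisons share libraries pairwise, so their values are not independent of each other.

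**Figure D2:**
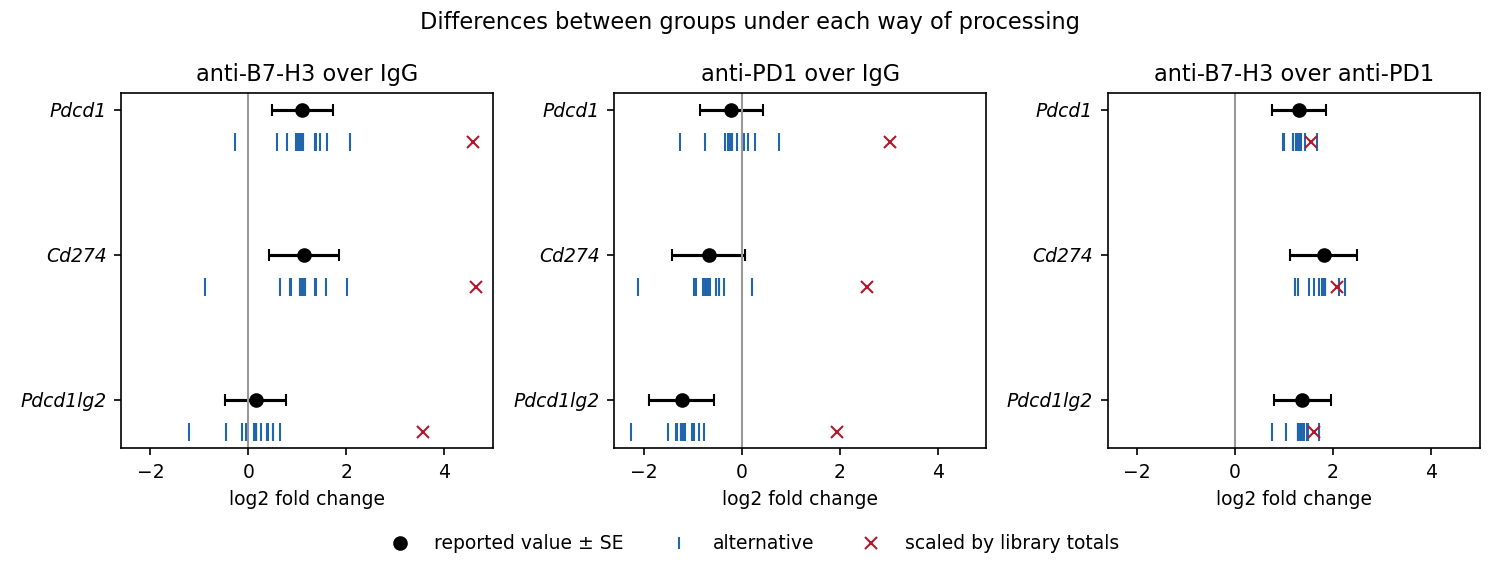
Log2 fold change of each gene in the 3 comparisons, with the standard error of the reported value (black), the value under each alternative (blue) and the value when scaled by library totals (red cross). The values of anti-B7-H3 over anti-PD1 stay above 0 throughout, while those against IgG cross 0 for at least 1 alternative in 5 of the 6 cases when library totals are left aside.

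Cd276, the target of the anti-B7-H3 antibody, likewise had no difference past the threshold. It stood at 7.77, 9.08 and 5.89 CPM with anti-B7-H3, at 5.32, 4.61 and 7.02 CPM with anti-PD1 and at 5.06, 7.70 and 6.89 CPM with IgG. The groups overlapped, and the log2 fold change was 0.20 ± 0.26 for anti-B7-H3 over IgG, -0.22 ± 0.27 for anti-PD1 over IgG and 0.42 ± 0.24 for anti-B7-H3 over anti-PD1, and it passed in none of them (edgeR adjusted p = 0.847, 0.702 and 0.770).

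How far the reads stood above background differed between groups. From the receptor reads per kilobase and each gene's coding length, the third IgG library would hold 3.24 reads of Pdcd1, 3.26 of Cd274 and 2.78 of Pdcd1lg2, and 2, 5 and 2 were counted. In the other IgG libraries, Pdcd1 and Pdcd1lg2 had 2.76 to 4.83 times the predicted reads, and Cd274 had 24.1 and 26.0 times. With anti-B7-H3 the ratio of counted to predicted reads ran between 13.6 and 2871 over the 3 genes, and with anti-PD1 between 7.26 and 248. Pdcd1 and Pdcd1lg2 in the third IgG library were thus at or below this background and cannot be read as expression there, while all antibody libraries were above it. With the predicted reads subtracted, a step chosen after seeing the data, the log2 fold change of Pdcd1 was 1.61 for anti-B7-H3 over IgG and 0.26 for anti-PD1 over IgG, and that of Pdcd1lg2 was 0.65 and -0.77 in the same comparisons, none of them past the threshold. The non-overlap of Pdcd1lg2 between anti-PD1 and IgG was then lost, since the third IgG library came to 0.

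**Figure D3:**
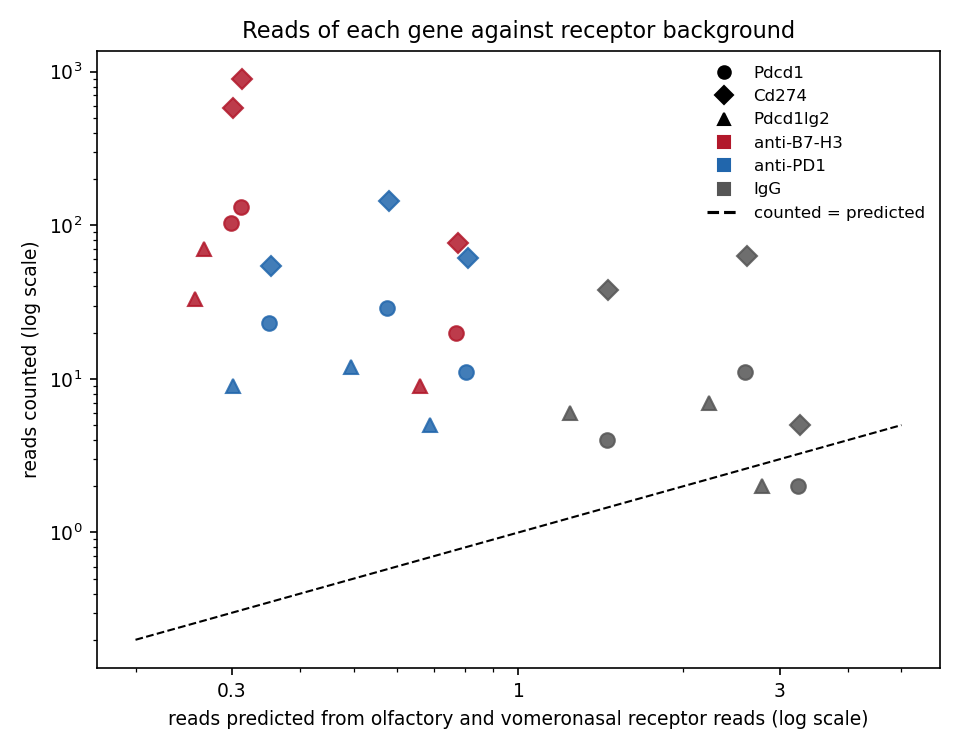
Reads counted for Pdcd1, Cd274 and Pdcd1lg2 in each library (vertical, log scale) against the reads predicted from olfactory and vomeronasal receptor reads per kilobase (horizontal, log scale); the dashed line marks equality. In the third IgG library, at the far right, Pdcd1 and Pdcd1lg2 lie below the line and Cd274 just above it, and all antibody libraries lie well above it.

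Ratios of the genes within a library do not depend on its scaling. Pdcd1 was set against the T cell receptor complex genes Cd3d, Cd3e, Cd3g and Cd247 on the per-length scale, since in bulk tumor fewer T cells and less RNA per cell cannot be told apart in the Pdcd1 level itself. Per 100 units of this T cell RNA there were 11.5, 19.9 and 24.3 units of Pdcd1 with anti-B7-H3, or 18.6 ± 6.48. There were 13.8, 10.9 and 10.1 units with anti-PD1, or 11.6 ± 1.91, and 13.6, 4.74 and 8.85 with IgG, or 9.07 ± 4.45 (SD, n = 3 each). The genes of the divisor did not move together. Cd247 averaged 0.415 CPM with anti-B7-H3, 0.482 with anti-PD1 and 1.35 with IgG. Cd3d averaged 1.44, 0.908 and 0.589 CPM in that order, and Cd3e and Cd3g were also highest with anti-B7-H3. In the third IgG library the ratio rests on 2 reads of Pdcd1, which were below the background given above. Both the second and the third anti-B7-H3 library were above all 7 others. The 95% counting interval of library 2 (exact binomial, counting error only) ran between 15.7 and 25.0 and that of library 3 between 19.6 and 29.9, while the anti-PD1 libraries 2 and 3 reached no further than 17.4 and 15.2. The first anti-PD1 library and the first IgG library, with fewer reads, had intervals up to 27.1, the second IgG library up to 13.7 and the third up to 39.8. The first anti-B7-H3 library, at 11.5 with an interval of 6.74 to 18.8, lay among the anti-PD1 libraries. No test was run on the ratios, since 3 libraries against 3 cannot give an exact two-sided permutation p below 0.10.

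The counted balance of the ligands was in favour of Cd274 in every library, though in the third IgG library not beyond counting error. The ratio of Cd274 to Pdcd1lg2 per length was 6.98, 14.4 and 10.5 with anti-B7-H3, or 10.6 ± 3.71. It was 9.96, 4.90 and 9.83 with anti-PD1, or 8.23 ± 2.89, and 7.27, 5.12 and 2.01 with IgG, or 4.80 ± 2.64 (SD, n = 3 each). The groups overlapped, and the low value of the third IgG library rests on 5 and 2 reads, with an interval of 0.330 to 21.2.

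**Figure D4:**
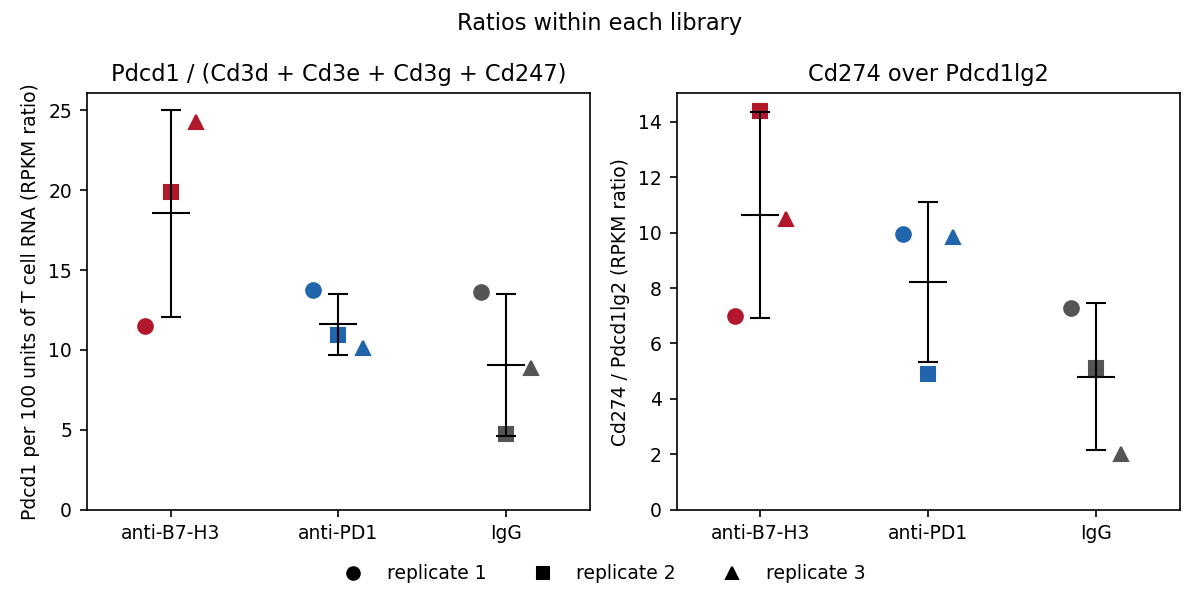
Ratios within each library from length-scaled levels, with the mean and SD of each group of 3: Pdcd1 per 100 units of summed Cd3d, Cd3e, Cd3g and Cd247 (left) and Cd274 over Pdcd1lg2 (right). Pdcd1 per T cell RNA is highest in the anti-B7-H3 libraries 2 and 3, at 19.9 and 24.3. The ligand ratio is above 1 in all 9 libraries, but in the third IgG library it rests on 5 and 2 reads.

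Over the 9 libraries the log2 levels of the genes moved together, with Pearson's r of 0.852 between Pdcd1 and Cd274, 0.702 between Pdcd1 and Pdcd1lg2 and 0.729 between Cd274 and Pdcd1lg2. These are descriptions over 9 points that share groups and differ in depth. With the log2 of the summed per-length level of Cd3d, Cd3e, Cd3g and Cd247, r was 0.721 for Pdcd1, 0.665 for Cd274 and 0.824 for Pdcd1lg2. The 14 T cell marker genes, these included, summed to 21.5, 31.7 and 36.9 CPM in anti-B7-H3 tumors. Their sum was 14.4, 24.4 and 24.9 CPM in anti-PD1 tumors and 31.7, 13.1 and 22.5 in IgG tumors. All 14 markers were tested with none past the threshold in any comparison. The 3 libraries with the highest sum were also the 3 highest in Pdcd1, and the part of T cell content in the result was not tested.

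Among other cell types that carry the ligands, the 12 macrophage and monocyte markers, all tested, summed to 698, 644 and 1018 CPM in anti-B7-H3 tumors, 494, 1118 and 478 in anti-PD1 tumors and 594, 528 and 244 in IgG tumors. The 12 dendritic cell markers, of which 11 were tested, summed to 123, 141 and 150 CPM in anti-B7-H3 tumors, 81.8, 103 and 111 in anti-PD1 tumors and 131, 127 and 74.5 in IgG tumors. None of either list passed the threshold in any comparison. The macrophage and monocyte markers still had a median log2 fold change of 0.97 for anti-B7-H3 over IgG, with 12 of 12 above 0. For anti-PD1 over IgG the median was 0.81, with 11 of 12 above 0, and between the antibodies it was 0.19, with 8 of 12. The medians of all tested genes were 0.03, 0.01 and 0.01 in these comparisons. The part of macrophages in the ligand levels was not tested. The dendritic sum was higher in each anti-B7-H3 library than in each anti-PD1 library, but 3 genes that other cells also make, named after their values were seen, carried most of it. Fscn1 averaged 81.1 CPM in anti-B7-H3 tumors and 69.9 in anti-PD1 tumors, Itgax 32.4 and 11.3 and Irf8 16.7 and 9.81 in those groups. The rest of the list was divided. Zbtb46, with means of 1.93 CPM in anti-B7-H3 tumors and 2.12 in anti-PD1 tumors, did not follow this order. Nor did Ccr7 at 1.36 and 1.47, Ccl22 at 0.339 and 0.766 and Cd209a at 0.438 and 0.749. Flt3 at 1.40 and 1.29, Xcr1 at 0.785 and 0.423 and Clec9a at 0.517 and 0.427 did follow it. So did Batf3 at 0.800 and 0.271 and Siglech, which was not tested, at 0.259 and 0.155. The part of dendritic cells in the ligand levels was not tested. The 5 NK cell markers, of which 4 were tested with none called, summed to 3.12, 8.22 and 11.2 CPM in anti-B7-H3 tumors, 2.55, 4.999 and 4.51 in anti-PD1 tumors and 6.22, 3.01 and 4.60 in IgG tumors. Prf1, with means of 3.72, 0.953 and 1.76 CPM in that order of groups, and Klrk1, with 2.46, 1.97 and 1.36, carried most of it. Klre1 and Klrb1c were low and also highest with anti-B7-H3, while Ncr1 averaged 0.342, 0.378 and 0.775 CPM. The part of NK cells in the sum was not tested. Of the 5 B cell markers 1 was tested and not called, and the sum of the list stayed at or below 0.972 CPM in anti-B7-H3 tumors, 1.42 in anti-PD1 tumors and 6.43 in IgG tumors.

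Skeletal muscle RNA varied most between libraries. Its 4 markers, all tested with none called, summed to 215, 0.500 and 1235 CPM in anti-B7-H3 tumors, 45.9, 840 and 387 in anti-PD1 tumors and 18.7, 39.3 and 11.03 in IgG tumors. The anti-B7-H3 libraries 2 and 3 had the lowest and the highest muscle sum of the 9. The part of muscle RNA in the levels of Pdcd1 and its ligands was not tested. Of the 5 keratinocyte markers 2 were tested, and Dsp was called lower with anti-B7-H3 than with IgG; the list summed to 0.472 to 1.74 CPM with anti-B7-H3, 0.863 to 1.97 with anti-PD1 and 9.33 to 23.0 with IgG. The 4 endothelial markers, none called, summed to 38.9 to 60.0 CPM with anti-B7-H3, 54.2 to 57.1 with anti-PD1 and 41.2 to 61.1 with IgG. Of 3 adipocyte markers 1 was tested and not called, and they summed to 1.28 to 2.65 CPM with anti-B7-H3, 2.18 to 3.10 with anti-PD1 and 2.23 to 4.08 with IgG.

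Genes around the receptor and its ligands were followed in 6 lists with 62 entries. Among the tested genes of these lists, edgeR called 0 in each of the 3 comparisons, against 0.609%, 0.408% and 0% of all genes. Medians of the log2 fold change are set beside those of all tested genes, which were 0.03 for anti-B7-H3 over IgG, 0.01 for anti-PD1 over IgG and 0.01 for anti-B7-H3 over anti-PD1. Log2 fold changes above 0 were found for 53.3%, 50.4% and 51.1% of all tested genes in those comparisons. At an unadjusted p under 0.05, edgeR had 3.59% of all tested genes higher and 6.96% lower for anti-B7-H3 over IgG, 7.68% higher and 10.9% lower for anti-PD1 over IgG, and 3.93% higher and 2.55% lower for anti-B7-H3 over anti-PD1. The corresponding shares of the 57 tested genes of the lists were 8.77% higher and 8.77% lower, 5.26% higher and 21.1% lower, and 7.02% higher and 0% lower. The medians are also given with the receptor reads as a covariate, a step that in several lists turned the sign of the comparisons with IgG. As this covariate nearly follows the split between IgG and the antibodies, the turned signs cannot be read as reversals.

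Downstream of PD-1, 9 of 10 genes that carry T cell receptor signals or are drawn to PD-1 were tested. Their median was 0.00 for anti-B7-H3 over IgG, -0.22 for anti-PD1 over IgG and 0.36 for anti-B7-H3 over anti-PD1, with 4, 4 and 7 of 9 above 0 in those comparisons, against 53.3%, 50.4% and 51.1% of all genes. With the receptor covariate the medians were -0.53, -0.66 and 0.15 in the same order. At an unadjusted p under 0.05 there were 2 of 9 higher and 1 lower for anti-B7-H3 over IgG, where 3.59% of all genes were higher and 6.96% lower, and 0 in the other comparisons. Lcp2, the adaptor SLP-76, was at 9.72, 17.6 and 14.99 CPM in anti-B7-H3 tumors, 6.92, 12.2 and 9.73 in anti-PD1 tumors and 11.1, 7.59 and 5.97 in IgG tumors. Ptpn6, the phosphatase SHP-1, was at 15.5, 28.0 and 35.6 CPM in anti-B7-H3 tumors, 16.5, 27.9 and 17.3 in anti-PD1 tumors and 20.0, 12.6 and 9.65 in IgG tumors. The log2 fold change of anti-B7-H3 over IgG was 0.75 ± 0.30 for Lcp2 (edgeR adjusted p = 0.381) and 0.88 ± 0.35 for Ptpn6 (edgeR adjusted p = 0.378). Neither was past the threshold, and with the receptor covariate both signs turned, to -0.53 ± 0.58 and -0.64 ± 0.68. With the predicted reads subtracted both signs stayed, at 0.77 ± 0.34 for Lcp2 and 0.81 ± 0.37 for Ptpn6.

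Of 14 transcription factors that act on Pdcd1 or in exhausted T cells, 13 were tested. The median of these was -0.48 for anti-B7-H3 over IgG, -0.65 for anti-PD1 over IgG and 0.33 for anti-B7-H3 over anti-PD1, with 2, 1 and 10 of 13 above 0 in those comparisons, against 53.3%, 50.4% and 51.1% of all genes. At an unadjusted p under 0.05, edgeR had 3 of 13 lower for anti-B7-H3 over IgG, where 6.96% of all genes were, 6 of 13 lower for anti-PD1 over IgG, where 10.9% of all genes were, and 0 between the antibodies. Eomes, a T-box factor of cytotoxic cells, was at 0.307, 0.556 and 0.463 CPM in anti-B7-H3 tumors, 0.437, 0.431 and 0.745 in anti-PD1 tumors and 1.56, 1.23 and 8.73 in IgG tumors. It was lower in each antibody library than in each IgG library, with log2 fold changes of -2.92 ± 0.76 for anti-B7-H3 and -2.64 ± 0.77 for anti-PD1 over IgG (edgeR adjusted p = 0.130 and 0.121), and DESeq2 called it in both comparisons. Foxo1, a factor of quiescent and memory T cells that many other cells also make, was at 6.39, 7.06 and 2.78 CPM in anti-B7-H3 tumors, 4.59, 2.89 and 4.47 in anti-PD1 tumors and 10.9, 8.60 and 12.9 in IgG tumors. Its log2 fold change was -0.97 ± 0.35 for anti-B7-H3 and -1.41 ± 0.36 for anti-PD1 over IgG (edgeR adjusted p = 0.309 and 0.0923). The receptor reads stand in the same order of groups, highest with IgG. With them as a covariate the median of the list was 0.039 for anti-B7-H3 over IgG, -0.27 for anti-PD1 over IgG and 0.36 between the antibodies, and with the predicted reads subtracted it was -0.16, -0.37 and 0.35. In the covariate fit, Eomes was at -0.82 ± 1.82 and Foxo1 at 0.039 ± 0.71 for anti-B7-H3 over IgG, and they were at -0.97 ± 1.499 and -0.61 ± 0.60 for anti-PD1 over IgG. With the predicted reads subtracted, Eomes was at -2.37 ± 0.94 and Foxo1 at -0.99 ± 0.37 for anti-B7-H3 over IgG. For anti-PD1 over IgG, Eomes was then at -2.12 ± 0.95 and Foxo1 at -1.44 ± 0.37, and none of these values passed the threshold.

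All 14 genes of the interferon gamma, JAK-STAT and IRF1 axis were tested, the path that induces Cd274. Here the median was 0.30 for anti-B7-H3 over IgG, -0.06 for anti-PD1 over IgG and 0.46 for anti-B7-H3 over anti-PD1, with 12, 6 and 11 of 14 above 0 in those comparisons, against 53.3%, 50.4% and 51.1% of all genes. With the receptor covariate the medians were -0.35, -0.54 and 0.39, so the sign against IgG turned for anti-B7-H3, and with the predicted reads subtracted they were 0.17, -0.21 and 0.45. At an unadjusted p under 0.05 edgeR had 0 of 14 for anti-B7-H3 over IgG, 1 higher and 2 lower for anti-PD1 over IgG, where 7.68% and 10.9% of all genes were, and 2 higher for anti-B7-H3 over anti-PD1, where 3.93% were. The summed level was 516, 878 and 820 CPM in anti-B7-H3 tumors, 569, 466 and 628 in anti-PD1 tumors and 674, 464 and 448 in IgG tumors. Highest were the anti-B7-H3 libraries 2 and 3 and the first IgG library, as they were for Cd274. Socs1, an interferon-induced inhibitor of JAK kinases, was at 3.48, 6.39 and 8.02 CPM in anti-B7-H3 tumors, 1.60, 3.06 and 2.82 in anti-PD1 tumors and 9.33, 4.91 and 5.51 in IgG tumors. Its log2 fold change was 1.24 ± 0.36 for anti-B7-H3 over anti-PD1 (edgeR adjusted p = 0.749), with no overlap of these groups, and -1.38 ± 0.39 for anti-PD1 over IgG (edgeR adjusted p = 0.114). Socs3, an inhibitor of STAT3 signals, was at 11.5, 16.1 and 14.2 CPM in anti-B7-H3 tumors, 7.86, 9.18 and 8.67 in anti-PD1 tumors and 14.97, 13.2 and 10.6 in IgG tumors. Its log2 fold change was 0.70 ± 0.19 for anti-B7-H3 over anti-PD1 (edgeR adjusted p = 0.749) and -0.61 ± 0.20 for anti-PD1 over IgG (edgeR adjusted p = 0.155). Both inhibitors were thus lowest with anti-PD1 in every library, without passing the threshold. Ifng itself, named after its values were seen, was nearly absent, at 0.460, 0.333 and 0.643 CPM in anti-B7-H3 tumors, 0.0728, 0.0862 and 0.235 in anti-PD1 tumors and 0.778, 0 and 0 in IgG tumors.

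For PD-L2, 5 of 8 genes of the interleukin-4, interleukin-13 and GM-CSF axis were tested, and the cytokines Il4, Il13 and Csf2 themselves had too few reads. The list had a median of 0.66 for anti-B7-H3 over IgG, 0.20 for anti-PD1 over IgG and 0.37 for anti-B7-H3 over anti-PD1, with 4, 3 and 5 of 5 above 0 in those comparisons, against 53.3%, 50.4% and 51.1% of all genes. With the receptor covariate both signs against IgG turned, the medians being -0.42, -0.39 and 0.21. Before adjustment, at p under 0.05, there were 3 of 5 higher for anti-B7-H3 over IgG, where 3.59% of all genes were, 1 higher and 1 lower for anti-PD1 over IgG, where 7.68% and 10.9% were, and 1 higher between the antibodies, where 3.93% were. Csf2ra, a chain of the GM-CSF receptor, was at 5.42, 7.17 and 7.20 CPM in anti-B7-H3 tumors, 2.11, 5.17 and 3.77 in anti-PD1 tumors and 7.19, 5.69 and 7.35 in IgG tumors. Like Pdcd1lg2 it was lower in each anti-PD1 library than in each IgG library, and the log2 difference was -0.83 ± 0.32 (edgeR adjusted p = 0.201). Csf2rb, the shared beta chain, was at 14.5, 16.0 and 18.6 CPM in anti-B7-H3 tumors, 9.54, 15.3 and 10.8 in anti-PD1 tumors and 11.7, 10.5 and 8.27 in IgG tumors. Its log2 fold change for anti-B7-H3 over IgG was 0.66 ± 0.23 (edgeR adjusted p = 0.274), or -0.066 ± 0.45 with the receptor covariate. With the predicted reads subtracted, that of Csf2rb was 0.77 ± 0.28.

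The 14 regulators of PD-L1 RNA or protein, all tested, had a median of 0.05 for anti-B7-H3 over IgG, -0.01 for anti-PD1 over IgG and 0.07 for anti-B7-H3 over anti-PD1, with 8, 7 and 9 of 14 above 0 in those comparisons, against 53.3%, 50.4% and 51.1% of all genes. With the receptor covariate the medians were -0.065, -0.22 and 0.060. Before adjustment, at p under 0.05, edgeR had 1 of 14 lower for anti-B7-H3 over IgG, where 6.96% of all genes were, 1 higher and 3 lower for anti-PD1 over IgG, where 7.68% and 10.9% were, and 1 higher for anti-B7-H3 over anti-PD1, where 3.93% were. Cmtm4, a membrane protein that protects PD-L1 from degradation, was at 2.86, 2.22 and 2.67 CPM in anti-B7-H3 tumors, 2.18, 1.77 and 2.51 in anti-PD1 tumors and 4.86, 3.35 and 5.97 in IgG tumors. Its log2 fold change was -0.82 ± 0.31 for anti-B7-H3 and -1.08 ± 0.31 for anti-PD1 over IgG (edgeR adjusted p = 0.332 and 0.121), or 0.036 ± 0.66 and -0.39 ± 0.56 with the receptor covariate. With the predicted reads subtracted, Cmtm4 was at -0.91 ± 0.35 and -1.17 ± 0.36 in those comparisons. Cops5, a subunit of the COP9 signalosome that deubiquitinates PD-L1, was at 17.5, 21.7 and 27.6 CPM in anti-B7-H3 tumors, 21.1, 37.3 and 20.7 in anti-PD1 tumors and 14.0, 17.8 and 14.2 in IgG tumors. Its log2 fold change for anti-PD1 over IgG was 0.77 ± 0.27 (edgeR adjusted p = 0.174), or -0.088 ± 0.42 with the receptor covariate. With the predicted reads subtracted, that of Cops5 was 0.65 ± 0.27. The other binding partners of the ligands, Cd80 of PD-L1 and Rgmb of PD-L2, were both tested, with medians of 0.07 for anti-B7-H3 over IgG, -0.11 for anti-PD1 over IgG and 0.18 for anti-B7-H3 over anti-PD1, or 0.14, -0.066 and 0.21 with the receptor covariate. Cd80 was at 7.72, 8.11 and 10.6 CPM in anti-B7-H3 tumors, 8.96, 5.65 and 6.83 in anti-PD1 tumors and 8.75, 7.59 and 11.5 in IgG tumors. Rgmb was at 18.1, 18.8 and 18.02 CPM in anti-B7-H3 tumors, 16.1, 16.6 and 20.4 in anti-PD1 tumors and 16.1, 18.4 and 13.8 in IgG tumors. The groups overlapped for both, and the largest difference was -0.34 on the log2 scale, for Cd80 between anti-PD1 and IgG.

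The genes most like each of the 3 over the libraries were chosen by Pearson's r of the log2 level among 10548 tested genes with a symbol and a mean of at least 1 log2 CPM. For Pdcd1 these were Gm4841 (r = 0.975), Spn, the T cell surface protein CD43 (r = 0.967), Aim2, a sensor of cytosolic DNA (r = 0.961), Gzmb, the cytotoxic protease granzyme B (r = 0.952), and Ly6a, the surface protein Sca-1 (r = 0.951). Gzmb stood at 1.79, 4.44 and 6.07 CPM in anti-B7-H3 tumors, 1.02, 1.25 and 1.45 in anti-PD1 tumors and 3.11, 0.670 and 2.30 in IgG tumors. Its log2 fold change for anti-B7-H3 over anti-PD1 was 1.72 ± 0.52 (edgeR adjusted p = 0.749), and these groups did not overlap.

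For Cd274 they included Abcc4, a drug efflux pump (r = 0.971), Igtp, an interferon-induced GTPase (r = 0.970), Gbp2 (r = 0.965) and Gbp4 (r = 0.961), the last pair being guanylate-binding proteins induced by interferon. Gbp2 was at 69.5, 314 and 546 CPM in anti-B7-H3 tumors, 93.3, 51.0 and 128 in anti-PD1 tumors and 279, 50.5 and 61.6 in IgG tumors. It was high in the same libraries as Cd274, the anti-B7-H3 libraries 2 and 3 and the first IgG library, and it did not pass the test in any comparison. The log2 fold change of Gbp2 for anti-B7-H3 over anti-PD1 was 1.77 ± 0.88 (edgeR adjusted p = 0.759).

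For Pdcd1lg2 they were 1700012B09Rik (r = 0.965), Stx11, a syntaxin of granule release in lymphocytes (r = 0.957), Tmco4 (r = 0.953), Tubb3, a beta tubulin best known in neurons (r = 0.941), and Dll1, a Notch ligand (r = 0.936). Tubb3 stood at 5.73, 20.97 and 33.3 CPM in anti-B7-H3 tumors, 3.35, 3.88 and 8.04 in anti-PD1 tumors and 21.4, 13.3 and 10.6 in IgG tumors. As for Pdcd1lg2, every anti-PD1 value was below every IgG value, and the log2 fold change for anti-PD1 over IgG was -1.57 ± 0.61 (edgeR adjusted p = 0.215). Of the 10548 candidates, 0.332% had an r above 0.9 for Pdcd1, 0.474% for Cd274 and 0.190% for Pdcd1lg2. The top genes were picked for their likeness, so their fold changes are descriptions and add nothing independent.

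**Figure D5:**
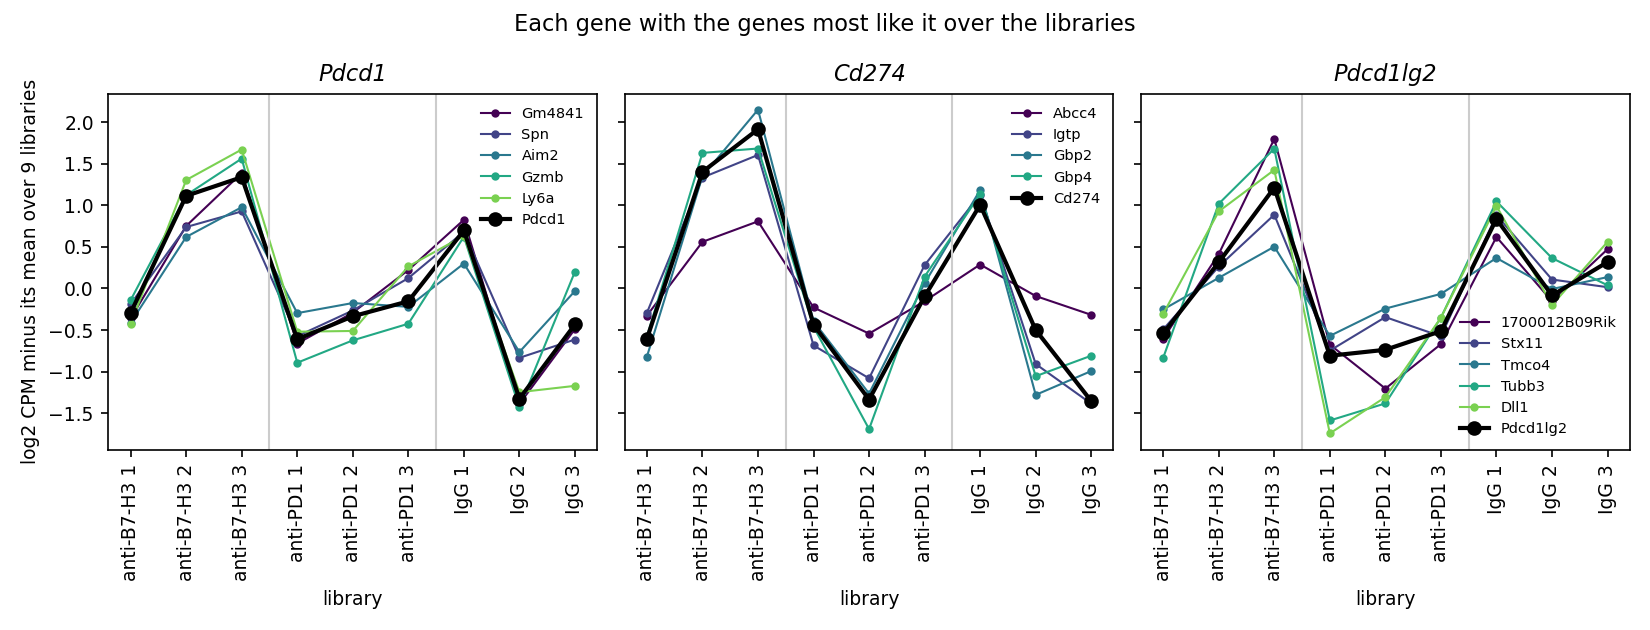
Log2 CPM minus its mean over the 9 libraries for Pdcd1, Cd274 and Pdcd1lg2 (black) and for the named genes most like each (coloured), with libraries along the horizontal axis by group and replicate number. Within the anti-B7-H3 group the first library is the lowest for each gene, and among IgG libraries the first is the highest for all 3.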

How the data were processed

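The deposited table of a library gives estimated counts per transcript, with TPM that the authors scaled by effective length, and the effective length itself, per the file headers. The quantifier and the strand setting are not given in the sources used here. FastQC 0.11.8 and GRCm38 are named, per the submitters' processing notes. Of 58083 transcripts, 57473 were matched by identifier, and the listed length equals the coding length for 92.2% of the 57362 with one. The deposited estimated counts were summed per gene and rounded. All 9 libraries, 3 per group, were fitted together in R 4.3.3 with edgeR 4.0.16: TMM, filterByExpr by group with a minimum count of 10, robust quasi-likelihood fit, group as the only term. Standard errors are the log2 fold change divided by the root of F. Satellite genes share more than 30% of their 15-base words with a satellite transcript; receptors are 1515 Olfr and Vmn genes. Alternatives were DESeq2 1.42.0, limma-voom (limma 3.58.1), other scalings and filters, a replicate block, receptor covariates and leaving out each library. Promoter windows come from RefSeq. The edgeR script was tested on simulated data. The 3 genes, the gene lists and the tests were chosen with earlier results of these data known. Named genes are the 3 genes, the antibody targets, in each list every called gene or otherwise the 2 with the smallest 3-group p, and the 5 genes most like each of the 3, of which 1 is not reported here.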

Additional observations from a re-analysis of the deposited data

How the results depend on the processing

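Read numbers limit these results: in the IgG libraries Pdcd1 and Pdcd1lg2 rest on 2 to 11 reads each. Of the alternatives, scaling by library totals, which moves all genes, changed calls: anti-B7-H3 over IgG became 4.58 for Pdcd1, 4.65 for Cd274 and 3.55 for Pdcd1lg2 on the log2 scale, anti-PD1 over IgG became 3.03, 2.57 and 1.94 in that order, and the 3-group edgeR adjusted p became 8.34e-12, 0.000108 and 2.95e-06. The medians of all genes then stood at 3.37, 3.15 and 0.20. With the receptor covariate, anti-B7-H3 over IgG was -0.28 ± 1.51 for Pdcd1, -0.89 for Cd274 and -1.21 for Pdcd1lg2. That covariate nearly follows the split between IgG and the antibodies, so these signs cannot be read as reversals. For anti-PD1 over IgG, Pdcd1 was 0.13 with limma-voom, 0.040 with totals of reads outside satellite genes, 0.017 with no filter and 0.26 with the background subtracted. With the replicate block, Pdcd1lg2 was -0.046 for anti-B7-H3 over IgG. The labels do not say what the replicate numbers share. Deviations of same-numbered libraries had correlations between -0.32 and 0.18. These were not set beside those of differently numbered libraries, so they do not settle whether the numbers pair the samples. The block changed no call of the 3 genes. Over all genes it called 0 higher and 134 lower for anti-PD1 over IgG in place of 1 and 52, and 1 higher and 102 lower for anti-B7-H3 over IgG. Leaving out 1 library in turn gave, for anti-B7-H3 over IgG, 0.58 to 2.07 for Pdcd1, 0.64 to 2.01 for Cd274 and -0.46 to 0.51 for Pdcd1lg2 (-0.13 without the second IgG library). For anti-PD1 over IgG it gave -0.74 to 0.76, -0.97 to 0.21 and -1.51 to -0.86, and for anti-B7-H3 over anti-PD1 1.00 to 1.67, 1.30 to 2.25 and 0.76 to 1.71. Pathway genes called, 0 in the reported fit, numbered 1 with DESeq2 (Eomes), 4 with no filter and 56 with library totals for anti-B7-H3 over IgG. For anti-PD1 over IgG they numbered 4 with DESeq2 (Tbx21, Eomes, Socs1 and Foxo1), 2 with no filter and 55 with library totals. Leaving out 1 library gave 0 to 1 in both. The receptor covariate turned the sign of list medians against IgG as given beside each list. Calls over all genes numbered 26 higher and 476 lower with DESeq2 for anti-B7-H3 over IgG and 181 higher and 641 lower for anti-PD1 over IgG. Pdcd1 and Pdcd1lg2 were not tested with at least 10 reads in every group mean, nor Pdcd1lg2 for anti-PD1 over IgG with those groups alone. The cause of these shifts was not tested.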
